A study of Mus musculus with 24 samples.

Results

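The genes described here are 10 components and products of the NF-kB pathway. Nfkb1 and Nfkb2 encode subunits of the transcription factor, Nfkbia and Tnfaip3 feedback inhibitors, and Nfkbiz a nuclear relative of the Nfkbia product. Zfp36 encodes an mRNA decay factor, and Il1b, Tnf, Cxcl2 and Ccl3 encode inflammatory cytokines and chemokines. The genes were found by matching the gene identifiers of the table, without their version, to the symbols of GENCODE M21. All 10 were present among the 54752 genes of the table. The RNA came from bone marrow cells of male mice on a C57BL/6 background, cryopreserved before extraction, with a library per mouse and 6 libraries in each of 4 groups. FL-WT (wild type) and FL-KO (Nrf2-KO) mice were 8 weeks old when they were transported for launch, spent 31 days in space and were sampled 2 days after landing. GC-WT and GC-KO mice were ground controls of the same genotypes. Nrf2 was missing from the whole animal in both KO groups, so a difference between genotypes is not tied to any marrow cell type. Launch, radiation, landing and recovery cannot be told apart within the flight groups. Per the paper, cage type, food and water supply were matched on the ground, but flight and ground mice could not be sampled in the same place. The place of sampling therefore cannot be told apart from flight in any comparison of flight with ground, and its part was not tested.

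NF-kB proteins are held in the cytoplasm by inhibitors of the IkB family until a signal from a cytokine or microbial receptor has the inhibitor degraded. The freed dimers enter the nucleus and switch on cytokines, chemokines and their own inhibitors, so the pathway carries its own brake. In bone marrow the cytokines are made mainly by neutrophils, monocytes and macrophages, and Nrf2, the regulator of antioxidant genes that these KO mice lack, is known to restrain inflammatory gene expression in myeloid cells.

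The sequences that tie these genes to the pathway are shown first. NF-kB binds the kB motif, and this consensus (searched by its name on both strands, with overlapping matches kept) was sought in the 250 bases before each gene start in the RefSeq windows of GRCm38.p6. Windows were at hand for 8 of the 10 genes, with 11 starts in all, and 6 windows of 4 genes held the motif, against 7.25% of all 32851 windows. The windows of Nfkb2, Nfkbia and Cxcl2 are printed because these transcripts, all with the motif, differed in how they moved. Capitals mark the kB matches, and each window ends at the base before the start.
Nfkb2, first of 3 starts, chr19:46304487-46304736, plus strand: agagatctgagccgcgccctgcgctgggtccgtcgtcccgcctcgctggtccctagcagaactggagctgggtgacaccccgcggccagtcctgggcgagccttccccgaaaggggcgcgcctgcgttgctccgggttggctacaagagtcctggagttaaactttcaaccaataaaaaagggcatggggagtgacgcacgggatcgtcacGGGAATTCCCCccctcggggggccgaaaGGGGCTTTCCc
Nfkbia, chr12:55492648-55492897, minus strand: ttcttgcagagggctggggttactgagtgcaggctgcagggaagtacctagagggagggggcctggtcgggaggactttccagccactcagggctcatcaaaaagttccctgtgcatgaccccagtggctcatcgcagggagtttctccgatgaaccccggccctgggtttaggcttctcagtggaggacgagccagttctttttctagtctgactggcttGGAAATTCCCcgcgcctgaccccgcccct
Cxcl2, chr5:90903649-90903898, plus strand: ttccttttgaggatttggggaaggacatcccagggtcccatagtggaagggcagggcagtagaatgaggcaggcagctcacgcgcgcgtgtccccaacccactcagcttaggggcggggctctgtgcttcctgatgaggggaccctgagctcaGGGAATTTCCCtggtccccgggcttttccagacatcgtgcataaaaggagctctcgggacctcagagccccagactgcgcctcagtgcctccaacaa

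The kB matches began 39, 38 and 11 bases before the first Nfkb2 start, 29 bases before the Nfkbia start, and 97 and 96 bases before the Cxcl2 start, where both letter runs overlap. Tnfaip3 held the motif at 1 of its 2 starts. No match was found in these windows for Zfp36, Il1b, Tnf or Ccl3. The letters TGACNNNGC, the core of the element that Nrf2 binds, occurred on either strand in 1 of the 11 windows, that of Nfkbia, against 10.2% of all windows. A match describes the letters and is not a measured binding site.

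The last shared feature lay in the 3′ UTR. Zfp36 encodes tristetraprolin, which binds AU-rich elements with the core TTATTTATT and hastens the decay of cytokine mRNA. On the sense strand of the GENCODE M21 3′ UTR this core was found in 5 of the 10 genes, against 6.82% of 10265 tested genes with a 3′ UTR. A stretch of 30 bases around a core is printed for 4 of these genes, to set the target of Zfp36 beside the genes that carry it, with the whole cores in capitals, overlapping ones joined.
Tnf, chr17:35199681-35199710, minus strand: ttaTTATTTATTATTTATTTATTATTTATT
Cxcl2, chr5:90905336-90905365, plus strand: atctatgtatTTATTTATTTATTaattcca
Zfp36, chr7:28376950-28376979, minus strand: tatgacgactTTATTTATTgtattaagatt
Nfkbia, chr12:55489607-55489636, minus strand: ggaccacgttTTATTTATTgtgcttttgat

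Tnf held 5 cores, 4 of them in the printed stretch, and Cxcl2 held 4, and Nfkbia, Tnfaip3 and Zfp36 itself held 1 each. The shorter letters ATTTA were present in the 3′ UTRs of all 10 genes, but also in 65.4% of the tested genes. At least 5 copies of ATTTA were held by Tnf, Cxcl2, Ccl3 and Tnfaip3, and by 19.1% of the tested genes.

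Levels are given as TPM (a share of the library's RNA corrected for transcript length), so genes can be compared in length-corrected level. Fold changes are differences of log2(TPM + 1) from limma, fitted over the 12373 genes that exceeded 1 TPM in 1 library or more, and p-values were adjusted over all of them by Benjamini and Hochberg. A DEG met both an adjusted p below 0.1 and a 2-fold size on that scale, which understates the changes of genes near 1 TPM. Fewer cells of a type and less RNA per cell cannot be told apart in these bulk samples.

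Facts of the whole table bear on every fold change below. Flight was compared with ground within WT (FL-WT vs. GC-WT) and within KO mice (FL-KO vs. GC-KO), and KO with WT mice on the ground (GC-KO vs. GC-WT) and after flight (FL-KO vs. FL-WT). The median log2 fold change of all genes tested was below 0 in each: -0.24 and -0.29 for flight in WT and KO mice, and -0.22 and -0.25 for genotype on the ground and after flight. A few small RNAs, such as 7SL and 7SK, took between 35.4% and 59.6% of the TPM of a library. With these RNAs left out the medians stayed below 0, at -0.31 and -0.21 for flight in WT and KO mice. For genotype they were then -0.35 on the ground and -0.23 after flight. With libraries rescaled by the median of gene ratios the median fold change of all genes lay between -0.0094 and 0.044 on the log2 scale, so changes on that scale are given beside the deposited ones where they bear on a direction or a call. Fold changes also followed GC content, with a Spearman correlation across 10419 genes, which are not independent replicates, of -0.45 and -0.54 for genotype on the ground and after flight and of -0.042 and -0.32 for flight in WT and KO mice. With transcript length the correlation lay between -0.24 and -0.39 in the 4 comparisons, the strongest being that for flight in WT mice. Nfe2l2, the gene of Nrf2, had a mean of 21.3 ± 3.19 TPM in GC-WT mice and 18.6 ± 5.93 TPM in FL-WT mice, against 4.97 ± 1.25 TPM in GC-KO and 3.07 ± 0.794 TPM in FL-KO (SD, n = 6 each), with no overlap between the genotypes.

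The counts of members that passed are read against the shares of all genes tested. In GC-KO vs. GC-WT 5 genes were lower and 1, Il1b, was higher at an adjusted p under 0.1 (limma), where 42.9% of all genes tested were lower and 3.13% higher. For FL-KO vs. FL-WT 6 were lower and none higher, against 47.2% and 1.91% of all genes. In FL-KO vs. GC-KO 3 were lower and Cxcl2 was higher, against 53.1% and 0.299%. In FL-WT vs. GC-WT only Tnfaip3 was lower and only Cxcl2 higher, against 39% and 0.994%. Cxcl2 passed the filter through 3 flight libraries alone, so its calls with flight are not independent of the filter and cannot be read against these shares. The shares of lower members thus lay near those of all genes between genotypes and below them with flight, and genotype was not tested against flight. The medians of the 10 log2 fold changes were -0.33, -0.39, -0.23 and -0.12 in that order, beside the medians of all genes given above.

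Few of these differences reached 2-fold. Nfkb1 was the DEG of GC-KO vs. GC-WT, where 3.04% of all genes tested were DEGs with lower values. Nfkb1, Nfkb2 and Zfp36 were the DEGs of FL-KO vs. FL-WT, against 8.36% of all genes. No member was a DEG in FL-WT vs. GC-WT, where 0.938% of genes were lower and 0.0647% higher DEGs and 2 members had an unadjusted p under 0.05 (limma), or in FL-KO vs. GC-KO, where 2.13% of genes were lower and 0% higher DEGs and 4 members had an unadjusted p under 0.05. No member had groups free of overlap with flight, where 4.19% of genes were so lower and 0.097% higher in WT mice and 18.4% and 0.0323% in KO mice. Between genotypes no member was higher in all libraries, against 0.218% of genes on the ground and 0.307% after flight. After median-of-ratios scaling, quantile normalization or removal of GC and length trends no member was a DEG in any of the 4 comparisons.

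**Figure D1:**
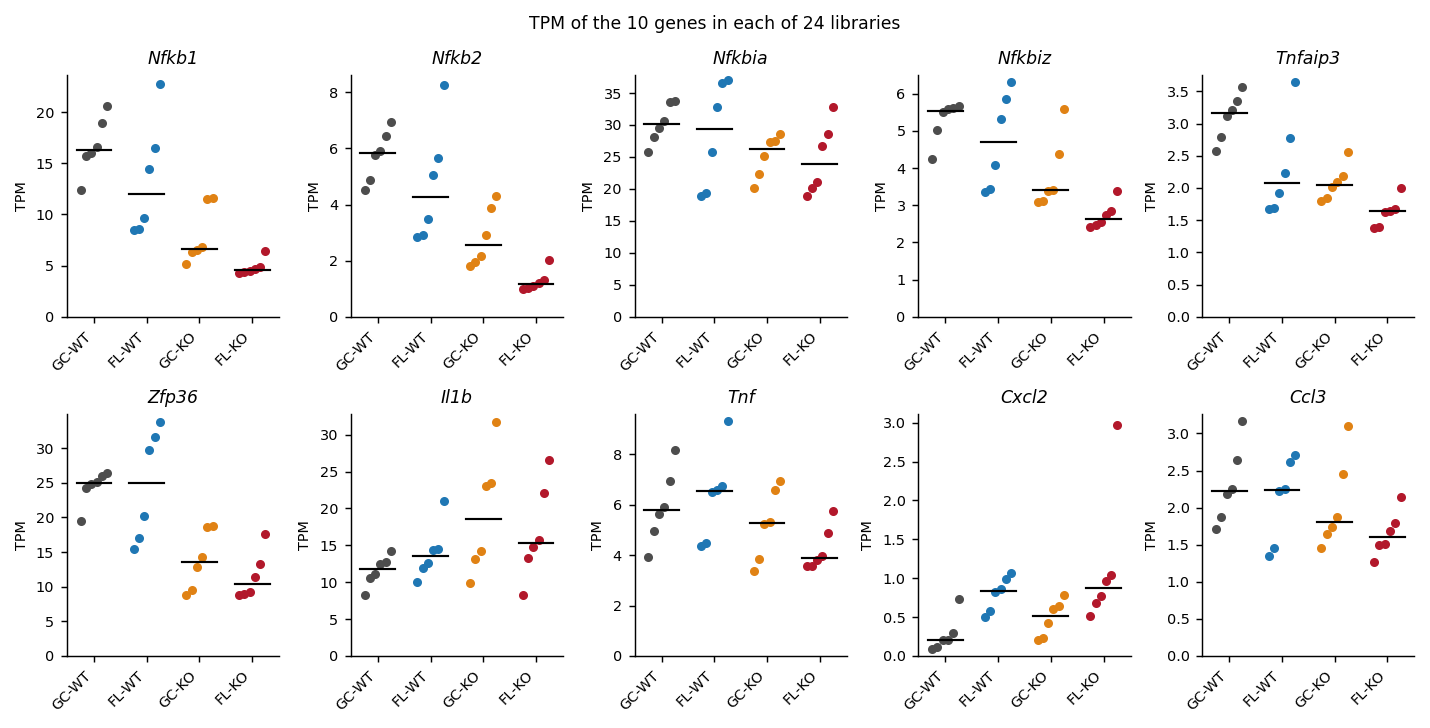
Each panel plots the TPM of a gene (vertical axis, from 0) in the 24 libraries, 6 points for each of the 4 groups, sorted within the group, with the group median as a bar. Nfkb1 and Nfkb2 stepped down from GC-WT to FL-KO, Nfkbia lay between 18.8 and 37 TPM in all libraries, and Il1b was highest in a GC-KO library at 31.7 TPM.

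Among the members, the subunit genes Nfkb1 and Nfkb2 showed the largest log2 fold changes between genotypes as deposited. This ranking depended on the scale. After median-of-ratios scaling Il1b differed more on the ground, at 0.93, than Nfkb1 at -0.69 and Nfkb2 at -0.55. With flight in WT mice the deposited change of Cxcl2, at 0.51, was also larger than that of Nfkb1, at -0.37. Nfkb1 (chr3:135584655-135691547 of GRCm38, minus strand) encodes p105, which is processed to the p50 subunit. Its TPM ran from 12.4 to 20.7 with a median of 16.3 in GC-WT, from 8.52 to 22.8 with a median of 12 in FL-WT, from 5.15 to 11.7 with a median of 6.66 in GC-KO, and from 4.31 to 6.47 with a median of 4.56 in FL-KO. Every GC-KO library was below every GC-WT library, and every FL-KO library below every FL-WT library, while ground and flight libraries of the same genotype overlapped.

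The difference in Nfkb1 level between genotypes was a log2 fold change of -1.02 ± 0.20 (SE, n = 6 against 6) on the ground (limma, adjusted p = 5.7e-04) and of -1.23 ± 0.20 after flight (adjusted p = 2.1e-05). Groups that did not overlap, with lower values, were found for 9.15% of all genes on the ground and 20.6% after flight. After median-of-ratios scaling the values were -0.69 and -0.84 (limma, adjusted p = 5.0e-04 and 1.9e-05), so the direction and the adjusted p stayed and the 2-fold size did not. On the ground the 2-fold size was also lost when GC-WT mouse 7 or 8 or GC-KO mouse 1, 2, 4 or 9 was left out, with values between -0.92 and -1.13 over all such fits. Flight gave a log2 fold change of -0.57 ± 0.20 in KO mice (adjusted p = 0.025) and of -0.37 ± 0.20 in WT mice (adjusted p = 0.16), and the first was -0.20 with an adjusted p of 0.26 after median-of-ratios scaling (limma). The WT value passed without FL-WT mouse 7, at -0.53 (limma, adjusted p = 0.022), and without GC-WT mouse 10 or FL-WT mouse 8 (adjusted p = 0.095 and 0.096).

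Nfkb2 (chr19:46304320-46312385, plus strand) encodes p100, the precursor of p52 and the subunit of the non-canonical arm. The values of Nfkb2 in TPM ran from 4.53 to 6.93 with a median of 5.84 in GC-WT, from 2.85 to 8.27 with a median of 4.27 in FL-WT, from 1.8 to 4.29 with a median of 2.56 in GC-KO, and from 0.97 to 2.01 with a median of 1.16 in FL-KO. Both genotype pairs were free of overlap, as for Nfkb1.

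For Nfkb2 the genotype difference was a log2 fold change of -0.85 ± 0.19 on the ground (limma, adjusted p = 0.0011) and of -1.27 ± 0.19 after flight (adjusted p = 6.5e-06). Median-of-ratios scaling gave -0.55 and -0.99 (limma, adjusted p = 0.0025 and 3.9e-06), and removal of GC and length trends gave -0.23 and -0.40 (adjusted p = 0.048 and 0.0010), so the 2-fold size was lost under both. Flight lowered it by a log2 fold change of -0.73 ± 0.19 in KO mice (limma, adjusted p = 0.0041), where mean TPM was 2.84 ± 1.05 in GC-KO and 1.27 ± 0.383 in FL-KO (SD, n = 6 each). In WT mice flight gave -0.31 ± 0.19 (limma, adjusted p = 0.21), and -0.46 without FL-WT mouse 7 (adjusted p = 0.029). The flight effect in KO mice was -0.46 (adjusted p = 0.015) after median-of-ratios scaling and -0.14 (adjusted p = 0.24) after removal of GC and length trends (limma), and Nfkb2 has a GC content of 59.4% beside a median of 49.1% for the genes tested.

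The other subunit genes, Rela, Relb and Rel, were lower in KO mice as well. Rela, which encodes p65, the main activating subunit, had means of 11.4 ± 2.41 TPM in GC-WT mice, 9.21 ± 4.05 TPM in FL-WT mice, 4.81 ± 2.26 TPM in GC-KO and 1.92 ± 0.438 TPM in FL-KO (SD, n = 6 each). It was a DEG in both genotype comparisons, at -1.15 ± 0.22 on the ground (limma, adjusted p = 5.4e-04) and -1.73 ± 0.22 after flight (adjusted p = 1.8e-06). Relb and Rel passed the adjusted p in both without reaching 2-fold, with log2 fold changes of -0.45 and -0.59 on the ground and of -0.74 and -0.51 after flight. After median-of-ratios scaling none of these 3 genes was a DEG on the ground and 1 was after flight, with 2 of 3 lower at an adjusted p under 0.1 in each (limma), and with GC and length trends removed none was a DEG in either.

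Nfkbia behaved differently from the subunit genes. It encodes IkB-alpha, the inhibitor that is degraded on activation and made again by NF-kB itself, and lies at chr12:55489410-55492647, minus strand. Its TPM ran from 25.8 to 33.8 with a median of 30.1 in GC-WT, from 18.8 to 37 with a median of 29.3 in FL-WT, from 20.1 to 28.5 with a median of 26.3 in GC-KO, and from 18.8 to 32.8 with a median of 23.9 in FL-KO. All 4 groups overlapped, and no comparison passed the test.

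The log2 fold changes of Nfkbia were -0.13 and -0.04 for flight in WT and KO mice and -0.26 and -0.17 for genotype on the ground and after flight, with an SE of 0.16 each and limma adjusted p between 0.21 and 0.83. After median-of-ratios scaling all 4 changed sign, to 0.20, 0.38, 0.085 and 0.26, and none passed either. With a mean of 27.1 TPM over all libraries Nfkbia was the most abundant of the 10 genes.

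Because a ratio of transcripts within a library does not depend on how libraries are scaled to each other, Nfkbia was also set against Nfkb1. The pairs for these ratios were chosen after the values were seen, so they are given without a test. A ratio still carries the GC and length trends given above, also in the ratios of Il1b and Nfkb2 below. Nfkb1 has 4149 nt, Nfkbia 1578 nt and Il1b 1356 nt, and Nfkb1 and Nfkb2 have GC contents of 44.9% and 59.4%. The part of these trends in the ratios was not tested, and no share over all gene pairs was computed. The ratio of Nfkbia to Nfkb1 TPM had medians of 1.75 and 2.23 in GC-WT and FL-WT mice but 3.56 and 5.28 in GC-KO and FL-KO mice. Every FL-KO library, at 3.25 to 7.11, was above every FL-WT library, at 1.61 to 2.68, and the ground groups overlapped.

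Nfkbiz (chr16:55811375-55838899, minus strand) encodes IkB-zeta, a nuclear member of the IkB family that acts on secondary response genes. It ran from 4.23 to 5.66 TPM with a median of 5.54 in GC-WT, from 3.36 to 6.32 with a median of 4.69 in FL-WT, from 3.09 to 5.6 with a median of 3.40 in GC-KO, and from 2.42 to 3.39 with a median of 2.64 in FL-KO. The groups overlapped in all 4 comparisons, and only slightly after flight, where the highest FL-KO value lay just above the lowest FL-WT value. The genotype difference was a log2 fold change of -0.39 ± 0.14 on the ground (limma, adjusted p = 0.023) and of -0.59 ± 0.14 after flight (adjusted p = 8.0e-04). Flight gave -0.35 ± 0.14 in KO mice (limma, adjusted p = 0.039) and -0.16 ± 0.14 in WT mice (adjusted p = 0.37). Of these, FL-KO vs. FL-WT alone passed after median-of-ratios scaling, at -0.25 (limma, adjusted p = 0.019), and the flight effect in KO mice had an adjusted p of 0.13 without GC-KO mouse 11.

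Tnfaip3 (chr10:19000910-19015657, minus strand) encodes A20, a ubiquitin-editing enzyme that ends NF-kB signalling. In TPM, Tnfaip3 ran from 2.57 to 3.57 with a median of 3.17 in GC-WT, from 1.68 to 3.65 with a median of 2.09 in FL-WT, from 1.8 to 2.56 with a median of 2.05 in GC-KO, and from 1.38 to 2 with a median of 1.64 in FL-KO. GC-KO lay wholly below GC-WT by a narrow margin, and the other pairs overlapped. The genotype difference was a log2 fold change of -0.41 ± 0.12 on the ground (limma, adjusted p = 0.0074) and of -0.32 ± 0.12 after flight (adjusted p = 0.029). Flight gave -0.33 ± 0.12 in WT mice (limma, adjusted p = 0.040) and -0.23 ± 0.12 in KO mice (adjusted p = 0.11). After median-of-ratios scaling the ground genotype difference was -0.15 (limma, adjusted p = 0.036) and the others did not pass. Removal of GC and length trends turned all 4 values positive, with 0.16 for flight in KO mice passing the test (limma, adjusted p = 0.043). The FL-WT vs. GC-WT difference missed the adjusted p without FL-WT mouse 5 or 6 (0.11 and 0.12), and that of FL-KO vs. FL-WT without FL-WT mouse 7 (0.11). The flight effect in KO mice passed without GC-KO mouse 1 or 4, FL-WT mouse 5, 6 or 7 or FL-KO mouse 11, with limma adjusted p between 0.054 and 0.097.

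**Figure D2:**
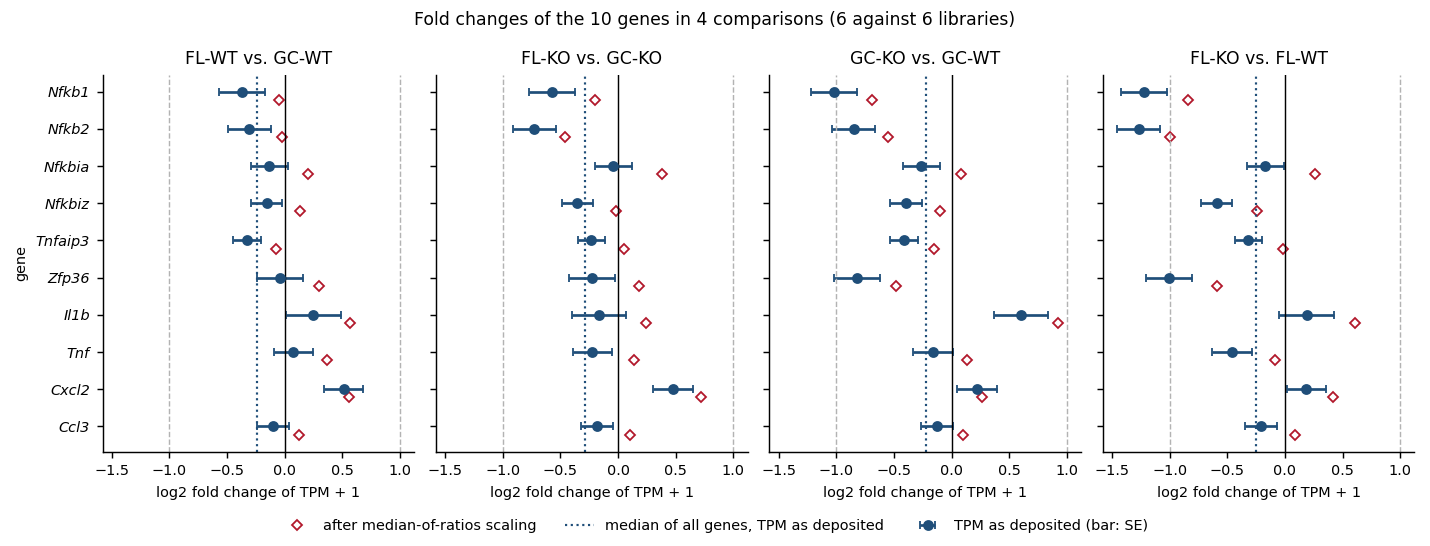
Filled points give the log2 fold change of TPM + 1 (horizontal axis) with its SE for each gene (vertical axis) in the 4 comparisons, open diamonds the value after median-of-ratios scaling, the dotted line the median of all genes tested and dashed lines a 2-fold change. Nfkb1, Nfkb2 and Zfp36 lie left of 0 in both genotype panels on both scales, Cxcl2 lies right of 0 in all 4 panels, and Nfkbia changes side with the scaling in all 4.

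Zfp36 (chr7:28376784-28380253, minus strand), the decay factor whose target letters are printed above, was low in KO marrow. Zfp36 ran in TPM from 19.5 to 26.4 with a median of 24.9 in GC-WT, from 15.4 to 33.7 with a median of 24.9 in FL-WT, from 8.85 to 18.8 with a median of 13.5 in GC-KO, and from 8.79 to 17.6 with a median of 10.4 in FL-KO. GC-KO lay wholly below GC-WT, while FL-KO overlapped FL-WT through FL-KO mouse 1 at 17.6 TPM and FL-WT mice 6 and 10 at 17 and 15.4 TPM.

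The genotype difference in Zfp36 was a log2 fold change of -0.82 ± 0.20 on the ground (limma, adjusted p = 0.0023) and of -1.01 ± 0.20 after flight (adjusted p = 1.8e-04). With median-of-ratios scaling these were -0.48 (adjusted p = 0.049) and -0.59 (limma, adjusted p = 0.013). The 2-fold size after flight was lost without FL-WT mouse 3, 7 or 8 or FL-KO mouse 4, 9 or 12, and values ranged from -0.91 to -1.13 when each library was left out. Flight gave log2 fold changes of -0.04 in WT and -0.23 in KO mice, with limma adjusted p of 0.89 and 0.34. Zfp36 overlaps the antisense gene Gm44710, listed at no more than 0.87 TPM, and how strand was set in counting is not given in the sources used here.

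Of the other mRNA decay genes listed, Zfp36l1 and Zfp36l2 are relatives of Zfp36 that bind the same kind of element. Both were also DEGs with lower values in FL-KO vs. FL-WT. Zfp36l1 was lower in KO than in WT mice by a log2 fold change of 1.16 ± 0.21 on the ground (limma, adjusted p = 4.2e-04) and by 1.28 ± 0.21 after flight (adjusted p = 2.2e-05). Zfp36l2 was lower in KO than in WT mice by 1.14 ± 0.21 after flight (limma, adjusted p = 6.6e-05). After median-of-ratios scaling, and with GC and length trends removed, none of the 6 other decay genes listed was a DEG in either genotype comparison.

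The cytokine and chemokine genes differed among themselves. Il1b encodes pro-interleukin-1 beta, an NF-kB target that is cleaved by the inflammasome before release, and lies at chr2:129364570-129371139, minus strand. Its TPM ran from 8.33 to 14.2 with a median of 11.8 in GC-WT, from 10.01 to 21.01 with a median of 13.5 in FL-WT, from 9.88 to 31.7 with a median of 18.6 in GC-KO, and from 8.27 to 26.6 with a median of 15.3 in FL-KO. KO libraries reached higher values but spread widely, and all groups overlapped.

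On the ground Il1b was higher in KO mice by a log2 fold change of 0.60 ± 0.24 (limma, adjusted p = 0.046), the only member with a higher value past the adjusted p between genotypes. Without GC-WT mouse 6 or GC-KO mouse 1 or 2 the adjusted p was 0.11, 0.15 and 0.10 and the value as low as 0.44. After median-of-ratios scaling the difference was 0.93 on the ground (limma, adjusted p = 0.0043) and 0.61 after flight (adjusted p = 0.039), whereas as deposited it was 0.19 ± 0.24 after flight (adjusted p = 0.57). Flight changed Il1b by 0.25 ± 0.24 in WT mice (limma, adjusted p = 0.42) and by -0.17 ± 0.24 in KO mice (adjusted p = 0.56), the latter turning to 0.25 with median-of-ratios scaling. With GC and length trends removed Il1b kept its deposited sign in every comparison, so flight in KO mice stayed negative there.

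Within a library, the ratio of Il1b to Nfkb1 TPM had medians of 0.710 and 1.09 in GC-WT and FL-WT mice but 2.30 and 3.34 in GC-KO and FL-KO mice. The KO libraries ranged from 1.22 to 5.76 and the WT libraries from 0.520 to 1.51, with no overlap between genotypes on the ground, where GC-WT ended at 1.01, or after flight, where FL-KO began at 1.84. The ratio of Il1b to Zfp36 had medians of 0.463, 0.581, 1.32 and 1.59 in the same order, with no overlap on the ground and a slight one after flight. By contrast, the ratio of Nfkb1 to Nfkb2 had medians of 2.87, 2.89, 2.92 and 3.88, so these subunit genes kept nearly the same proportion in the first 3 groups.

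**Figure D3:**
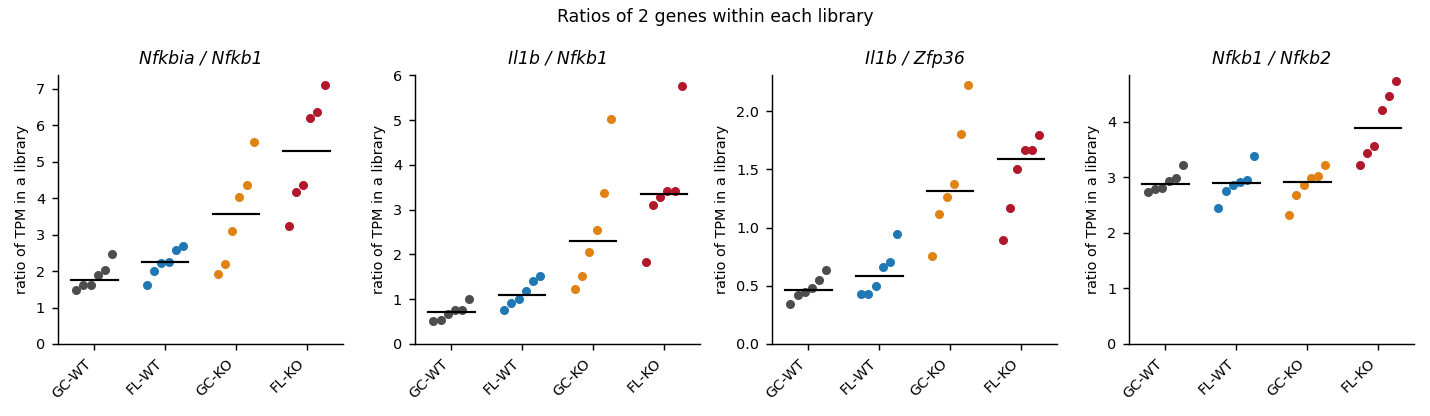
Each panel plots a ratio of the TPM of 2 genes within a library (vertical axis, from 0) for the 6 libraries of each group, with the median as a bar. Nfkbia and Il1b stood higher relative to Nfkb1 in KO than in WT groups, with medians of 5.28 and 3.34 in FL-KO, while Nfkb1 to Nfkb2 stayed near 2.9 except in FL-KO at 3.88.

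Tnf (chr17:35199381-35202007, minus strand) encodes tumour necrosis factor, a classic activator and target of NF-kB. It ran from 3.93 to 8.19 TPM with a median of 5.78 in GC-WT, from 4.35 to 9.31 with a median of 6.56 in FL-WT, from 3.37 to 6.93 with a median of 5.28 in GC-KO, and from 3.57 to 5.74 with a median of 3.89 in FL-KO. FL-KO was lowest in median, but all groups overlapped. Only FL-KO vs. FL-WT passed the adjusted p, at a log2 fold change of -0.46 ± 0.17 (limma, adjusted p = 0.029), and it was 0.10 without FL-WT mouse 7. That difference was -0.088 after median-of-ratios scaling (limma, adjusted p = 0.51), where FL-WT vs. GC-WT passed instead, at 0.36 (adjusted p = 0.020) against 0.075 as deposited.

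Cxcl2 (chr5:90903871-90905938, plus strand) encodes MIP-2, a chemokine that draws neutrophils through the receptor CXCR2. Cxcl2 TPM ran from 0.09 to 0.73 with a median of 0.21 in GC-WT, from 0.5 to 1.07 with a median of 0.84 in FL-WT, from 0.2 to 0.78 with a median of 0.515 in GC-KO, and from 0.51 to 2.97 with a median of 0.87 in FL-KO. Flight libraries were the higher ones in both genotypes, with some overlap in each. Cxcl2 was the least abundant of the 10 genes and entered the test through 3 flight libraries alone, FL-WT mouse 3 and FL-KO mice 1 and 2, the ones above 1 TPM.

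Flight raised Cxcl2 by a log2 fold change of 0.51 ± 0.17 in WT mice (limma, adjusted p = 0.028) and of 0.48 ± 0.17 in KO mice (adjusted p = 0.029), and the direction held under every scaling tried. Since this gene had to be high in a flight library to be tested, these values are not independent of the filter, and with all 28248 genes above 0 in any library tested the adjusted p was 0.063 in WT and 0.072 in KO mice (limma). With a pseudocount of 0.1 in place of 1 the changes were 1.42 and 1.004 and both counted as DEGs. In KO mice the change was 0.28 with an adjusted p of 0.10 without FL-KO mouse 1 (limma). Between genotypes Cxcl2 differed by 0.22 ± 0.17 on the ground and 0.19 ± 0.17 after flight (limma, adjusted p = 0.33 and 0.41), and the latter was 0.42 with an adjusted p of 0.071 after median-of-ratios scaling.

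Ccl3 (chr11:83647844-83649355, minus strand) encodes MIP-1 alpha, a chemokine for monocytes. Its TPM ran from 1.71 to 3.17 with a median of 2.22 in GC-WT, from 1.35 to 2.71 with a median of 2.24 in FL-WT, from 1.46 to 3.1 with a median of 1.81 in GC-KO, and from 1.27 to 2.14 with a median of 1.6 in FL-KO. The groups overlapped throughout, and the 4 log2 fold changes lay between -0.21 and -0.10 with limma adjusted p of 0.24 to 0.59. Median-of-ratios scaling turned all 4 positive, between 0.085 and 0.12. Removal of GC and length trends kept them negative, and FL-KO vs. FL-WT then passed at -0.33 (limma, adjusted p = 0.022), as it did as deposited without FL-WT mouse 6, at -0.29 (adjusted p = 0.097).

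The flight effect was not shown to differ between genotypes for any member. The interaction of flight and genotype had a limma adjusted p of 0.99995 for each of the 10 genes, and none had an unadjusted p under 0.05. Its largest values were -0.42 ± 0.26 for Nfkb2 and -0.42 ± 0.34 for Il1b, and 0.0162% of all genes tested were lower DEGs and 0% higher. In these data mean levels fell in the order GC-WT, FL-WT, GC-KO, FL-KO for Nfkb1, Nfkb2, Nfkbia, Nfkbiz, Tnfaip3 and Ccl3, but neighbouring groups in that order overlapped for all 6 genes.

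Rescaling the libraries by the median of ratios changed which members passed. At an adjusted p under 0.1 (limma), Nfkb1, Nfkb2, Tnfaip3 and Zfp36 were then lower and Il1b higher in GC-KO vs. GC-WT, where 27.8% of all genes tested were lower and 29.8% higher. After flight Nfkb1, Nfkb2, Nfkbiz and Zfp36 were lower and Il1b and Cxcl2 higher in KO than in WT mice, against 31.2% and 35.2%. In FL-WT vs. GC-WT Tnf, Il1b and Cxcl2 were higher, against 17.4%, and none was lower, against 15.9%. In FL-KO vs. GC-KO Nfkb2 was lower and Cxcl2 higher, against 21.6% and 18.1%. The limit that Cxcl2 was tested only because of high flight libraries holds for these counts as well.

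The members varied together to different degrees among the 24 libraries. On median-of-ratios scaled log2(TPM + 1), Pearson's r, given as a description because libraries share groups and scaling, was 0.96 between Nfkb1 and Nfkb2, 0.88 between Nfkbiz and Zfp36 and 0.73 between Nfkb1 and Zfp36. It was 0.69 between Il1b and Cxcl2, 0.64 between Nfkbia and Cxcl2 and 0.53 between Nfkbia and Il1b. Tnf and Ccl3 had r of 0.098 and 0.18 with Il1b and 0.11 and 0.17 with Nfkbia, but 0.27 and 0.46 with Cxcl2. Between Tnf and Ccl3 r was 0.48. It was 0.34 between Nfkbia and Zfp36 and 0.33 between Zfp36 and Cxcl2. Il1b had r of -0.52 with Nfkb1 and -0.53 with Nfkb2.

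**Figure D4:**
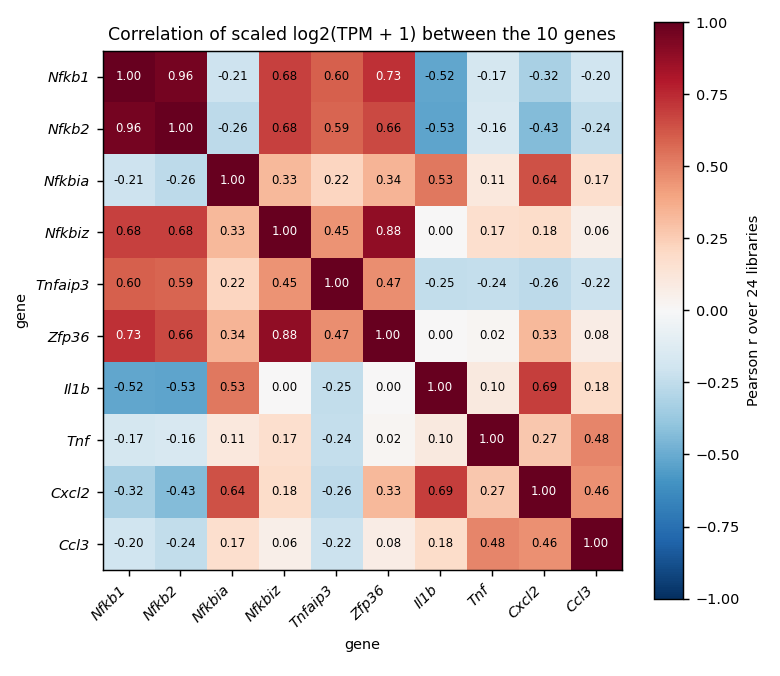
The matrix gives Pearson's r of median-of-ratios scaled log2(TPM + 1) over 24 libraries for each pair of the 10 genes (both axes), with red for positive and blue for negative values. Nfkb1, Nfkb2, Nfkbiz, Tnfaip3 and Zfp36 form a block of positive values, with the highest at 0.96, and Il1b is negative with the subunit genes at -0.52 and -0.53.

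Among the 5025 genes averaging 5 TPM or more, the 3 whose pattern was most like that of each sufficiently abundant member were named, by the same r over 24 libraries. They were Arf3, Stk10 and Abr for Nfkb1, at 0.99 each, and Map3k3, Dgat1 and Ier2 for Zfp36, at 0.92 each. For Nfkbia they were Trem1 (0.92), Jdp2 (0.92) and Cytip (0.89). Lower likeness was found for Il1b, with Dynll1 (0.80), Riok3 (0.79) and Gabarapl2 (0.78), and for Tnf, with Sephs2 (0.75), Mcts1 (0.75) and Clec5a (0.74).

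The wider pathway was followed through 96 other genes in 9 lists of subunits, inhibitors, kinases, receptors, cytokines, decoys, decay factors, inflammasome parts and targets, of which 84 were tested. In GC-KO vs. GC-WT 47 of the 84 were lower at an adjusted p under 0.1 and none higher (limma), with a median log2 fold change of -0.33. After flight 52 were lower in KO mice and 2 higher, with a median of -0.50. Flight lowered 22 in WT mice, with a median of -0.19, and 48 in KO mice, with a median of -0.32, and 1 was higher in each. The matching shares of all genes tested are those given for the members.

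As DEGs, 6 of the 84 were lower in KO mice on the ground, 9 after flight, and 1 with flight within KO mice, and none was higher in any of them. Of all genes tested 3.04%, 8.36% and 2.13% were lower DEGs in these comparisons, and 0.129%, 0.097% and 0% higher. Tgfb1, an anti-inflammatory cytokine, led all 3 comparisons, at log2 fold changes of -1.30 ± 0.24, -2.15 ± 0.24 and -1.41 ± 0.24 (limma, adjusted p = 4.5e-04, 7.9e-07 and 1.5e-04). Tnfrsf1b and Tnfrsf1a, the receptors for tumour necrosis factor, were at -1.83 ± 0.25 and -1.35 ± 0.19 in FL-KO vs. FL-WT (limma, adjusted p = 2.6e-06 and 4.0e-06), and Tnfrsf1b was at -1.30 ± 0.25 on the ground (adjusted p = 4.9e-04). By list, 18 of 25 receptors and adaptors and 6 of 10 kinases were lower at an adjusted p under 0.1 in each genotype comparison. Of the 9 tested other cytokines and chemokines 2 were lower on the ground and 4 after flight, and of the 5 inflammasome genes 2 in each. After median-of-ratios scaling 32 of the 84 were lower and 22 higher on the ground, and 42 lower and 19 higher after flight, so the one-sided picture depended on the scale. Of all genes tested 27.8% were then lower and 29.8% higher on the ground, and 31.2% and 35.2% after flight. The DEGs among the 84 then numbered 0 on the ground and 5 after flight, and with GC and length trends removed 0 and 2. With flight within KO mice the count was 1 under both. Lower DEGs among all genes numbered 62 on the ground, 381 after flight and 22 with flight in KO mice after the scaling. With the trends removed they numbered 40, 154 and 18.

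Immediate early genes rise with many stimuli and with cell handling, and their direction in KO mice depended on the scale. Of 13 tested, 7 were lower at an adjusted p under 0.1 in each genotype comparison and none higher (limma), beside the 42.9% and 47.2% of all genes that were lower. After median-of-ratios scaling 5 were lower and 1 higher on the ground, and 6 lower and 2 higher after flight, and DEGs went from 2 to 0 and from 4 to 3. As deposited 3.04% and 8.36% of all genes tested were lower DEGs, and after the scaling 62 and 381 of the 12373 genes were. With GC and length trends removed the median log2 fold changes were 0.057 and 0.090, no gene was a DEG, and 4 were lower and 1 higher on the ground and 4 lower and 3 higher after flight. Jund fell by a log2 fold change of 1.65 ± 0.19 in FL-KO vs. FL-WT (limma, adjusted p = 7.9e-07) and by 1.05 ± 0.19 with flight in KO mice (adjusted p = 2.0e-04). Klf2 was at -1.07 and -1.41 and Fosl2 at -1.17 and -1.41 in the ground and flight genotype comparisons. The part of cell handling in the members' differences was not tested.

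Markers of the cells that make these transcripts also moved. The summed TPM of 14 monocyte and macrophage markers had a median of 636 in GC-WT (511 to 708), 686 in FL-WT (449 to 817), 462 in GC-KO (395 to 624) and 414 in FL-KO (336 to 474), and none of the 14 was at 0 in any library. At an adjusted p under 0.1, 6 of them were lower in KO mice on the ground and 10 after flight, and none higher (limma). The summed TPM of 10 mature neutrophil markers had a median of 33699.6 in GC-WT (24639 to 49174), 50628 in FL-WT (39444 to 54888), 44484 in GC-KO (37544 to 57719) and 46889 in FL-KO (45636 to 62205), and none was at 0. Such a sum follows its most abundant markers, and Ccl6 and Il1r2 of this list averaged only 160.6 and 17.5 TPM over all libraries. Taken gene by gene, 7 of these 10 markers were lower and none higher in KO mice after flight, and 3 lower and 2 higher on the ground. In FL-WT vs. GC-WT 5 of the 10 were higher and none lower, and in FL-KO vs. GC-KO 1 was higher and 1 lower. The shares of all genes are those given for the members. After median-of-ratios scaling the neutrophil markers were 2 lower and 3 higher in KO mice on the ground, 3 lower and 2 higher after flight, and with flight 8 higher and none lower in WT mice and 8 higher and 1 lower in KO mice. The monocyte and macrophage markers were then 5 lower and 3 higher in KO mice on the ground and 6 lower and 1 higher after flight. The summed TPM of 5 promyelocyte markers had medians of 902 and 825 in GC-WT and FL-WT but 492 and 493 in GC-KO and FL-KO. Taken gene by gene, 2 of these 5 were lower and none higher in each genotype comparison at an adjusted p under 0.1 (limma). After median-of-ratios scaling 2 were lower and 2 higher in KO mice on the ground, and 2 lower and 1 higher after flight. The 8 B progenitor markers had medians of 211 and 123 in GC-WT and FL-WT and 139.96 and 82.9 in GC-KO and FL-KO, and no marker of either list was at 0. The part of cell composition in the members' differences was not tested.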

How the data were processed

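RNA of cryopreserved bone marrow cells was sequenced by the authors on the DNBSEQ-G400 from strand-marking MGIEasy libraries. Per the labels, the submitters' processing notes name STAR 2.6.1, RSEM 1.3.1 and the genome build mm10 (GRCm38), and the annotation is not given in the sources used here. The authors deposited TPM per gene, without read counts, so the depth of each library is unknown and no counting error can be given. Groups were taken from the labels. TPM has the same sum in each library, so a few abundant RNAs lower the values of all others.

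From the deposited TPM, log2(TPM + 1) of the 12373 genes above 1 TPM in at least 1 library was fitted over all 24 libraries, each group having its own mean (limma 3.58.1, R 4.3.3). The method was checked on simulated data. Separate mice were the replicates. Alternatives were the pseudocount, the filter, scaling, GC and length trends, thresholds, a replicate block and each library left out. The members, gene lists and tests were chosen with earlier results of these data known. Named genes were all members, Nfe2l2, Rela, Relb and Rel, the called pathway and immediate early genes averaging 5 TPM or more (at most 6 in each direction), and the 3 genes most like a member. Of the AU-rich cores found, some stretches are not reported here.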

Additional observations from a re-analysis of the deposited data

Results flagged for a closer look

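In 40 sets of 6 libraries (10 genes in 4 groups), 5 held a library apart from its group by Dixon's criterion, and chance marks about 1 set in 20. FL-KO mouse 11 had 6.47 TPM of Nfkb1, with the next FL-KO library at 4.82 TPM, and 2.01 TPM of Nfkb2, with the next at 1.31 TPM. GC-WT mouse 10 had the lowest Zfp36 of its group at 19.48 TPM, with the next at 24.18 TPM. For Cxcl2, GC-WT mouse 3 stood at 0.73 TPM above the next at 0.29 TPM, and FL-KO mouse 1 at 2.97 TPM above the next at 1.04 TPM. Without FL-KO mouse 1 the flight effect on Cxcl2 in KO mice was 0.28 on the log2 scale, with a limma adjusted p of 0.10.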

How the results depend on the processing

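The number of members called as DEGs was 0 and 0 for flight in WT and KO mice, 1 and 3 for genotype on the ground and after flight, and 0 for the interaction. With a pseudocount of 0.1 it was 1, 2 and 2 in the first 3. With no minimum fold change it was 2, 4, 6 and 6 in the 4 comparisons. For genotype on the ground and after flight it was 0 and 0 after median-of-ratios scaling, quantile normalization or removal of GC and length trends, and without the small RNAs 2 and 2. With each library left out it ranged from 0 to 0, 0 to 0, 0 to 1, 2 to 3 and 0 to 0 in the order first given. TPM carries no depth, so no limit by depth can be stated.

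Other values changed sign, none being a DEG on either scale, and the cause was not tested. After median-of-ratios scaling the log2 fold change in WT mice with flight was 0.20 for Nfkbia, 0.13 for Nfkbiz, 0.30 for Zfp36 and 0.12 for Ccl3. In KO mice with flight it was 0.38 for Nfkbia, 0.051 for Tnfaip3, 0.18 for Zfp36, 0.25 for Il1b, 0.14 for Tnf and 0.10 for Ccl3. In the ground genotype comparison it was 0.085 for Nfkbia, 0.13 for Tnf and 0.10 for Ccl3, in the flight genotype comparison 0.26 for Nfkbia and 0.085 for Ccl3, and in the interaction 0.16 for Cxcl2.

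After quantile normalization it was 0.093 for Nfkbia, 0.14 for Nfkbiz, 0.21 for Zfp36 and 0.15 for Ccl3 in WT mice with flight. In KO mice with flight it was 0.30 for Nfkbia, 0.038 for Nfkbiz, 0.13 for Tnfaip3, 0.16 for Zfp36, 0.21 for Il1b, 0.18 for Tnf and 0.18 for Ccl3. It was 0.18 for Tnf and 0.12 for Ccl3 in the ground genotype comparison, 0.21 for Nfkbia, 0.054 for Tnfaip3 and 0.15 for Ccl3 in the flight genotype comparison, and 0.16 for Cxcl2 and 0.035 for Ccl3 in the interaction.

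With GC and length trends removed it was 0.029 for Nfkb2, 0.054 for Nfkbia, 0.17 for Nfkbiz, 0.053 for Tnfaip3 and 0.24 for Zfp36 in WT mice with flight. In KO mice with flight it was 0.25 for Nfkbia, 0.052 for Nfkbiz, 0.16 for Tnfaip3, 0.21 for Zfp36 and 0.058 for Tnf. It was 0.0069 for Nfkbiz, 0.0011 for Tnfaip3 and 0.056 for Tnf in the ground genotype comparison, and 0.17 for Nfkbia and 0.11 for Tnfaip3 in the flight genotype comparison. Without the small RNAs it was 0.13 for Nfkbia and 0.0047 for Il1b in KO mice with flight, and 0.0030 for Zfp36, 0.0058 for Cxcl2 and 0.065 for Ccl3 in the interaction.

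With each library left out, values near 0 changed sign. In WT mice with flight they ranged from -0.14 to 0.076 for Zfp36 and from -0.030 to 0.16 for Tnf, and in KO mice with flight from -0.13 to 0.026 for Nfkbia and from -0.33 to 0.0048 for Il1b. They ranged from -0.0064 to 0.27 for Cxcl2 in the flight genotype comparison, and in the interaction from -0.014 to 0.17 for Nfkbia, from -0.23 to 0.053 for Cxcl2 and from -0.16 to 0.0049 for Ccl3.

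Ground and flight groups of a genotype carry the same mouse numbers, which gave correlations of deviations of -0.026 to 0.27 over 12 pairs. Among 6 possible partners, 8 of 24 libraries correlated best with their own number. These values do not settle whether the numbers mark pairs, so the main fit did not pair them and a fit with a block is given beside it. With the number as a replicate block the members called stayed at 0 in WT mice with flight, 0 in KO mice with flight and 0 for the interaction. At an adjusted p under 0.1 alone the block let 3 values pass that had not: Nfkb1 and Nfkb2 in WT mice with flight (limma, adjusted p = 0.050 and 0.087) and Tnfaip3 in KO mice with flight (0.060). WT and KO mice share no numbers, so their comparisons had no block.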
